A study of Saccharomyces cerevisiae with 4 samples.

Results

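The 10 genes described here carry out the recognition of mating partners in budding yeast (Saccharomyces cerevisiae), and were chosen by their systematic names from the 5500 reading frames of the deposited value table. Of these, 6 are a-specific, that is, transcribed in haploid cells of mating type a: STE2 (YFL026W), BAR1 (YIL015W), MFA1 (YDR461W), MFA2 (YNL145W), STE6 (YKL209C) and AGA2 (YGL032C). Another 3 are alpha-specific: STE3 (YKL178C), SAG1 (YJR004C) and AFB1 (YLR040C). AGA1 (YNR044W) is not restricted to one mating type. The study hybridised polyadenylated RNA of a strain named bre1 together with RNA of a wild-type strain on 4 2-colour arrays. The bre1 RNA carried Cy5 on arrays 2 and 4 and Cy3 on arrays 1 and 3, and the wild-type RNA carried the other dye. BRE1 encodes the ubiquitin ligase that acts on histone H2B. The labels give neither the kind of bre1 mutation nor the strain background, the growth conditions or the mating type, nor whether separate cultures were used for the 4 arrays. The p-values below therefore measure the spread among these arrays, part or all of which may be technical.

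Each cell type makes the pheromone that the other type senses. Cells of type a secrete a-factor, a short lipid-modified peptide, and carry the receptor for alpha-factor; alpha cells secrete alpha-factor and carry the receptor for a-factor. Binding of pheromone activates a G protein and a MAP kinase cascade, which ends at the transcription factor Ste12, and matching agglutinins on the cell walls then hold the partners together. In alpha cells the alpha2 repressor, together with Mcm1, Tup1 and Cyc8, keeps a-specific genes silent, and the alpha1 activator turns alpha-specific genes on. A haploid culture of one mating type thus expresses only one of the classes strongly, and the ratios used here do not show which class was near background.

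The values are log2 ratios, read as bre1 over wild type, so that a negative value means less RNA in bre1. This direction is likely and not settled. It rests on the order of names in the labels and on BRE1 itself. The log2 ratios of BRE1 were -1.65 (array 1) and -3.17 (array 3), both with bre1 RNA in Cy3. BRE1 had no value on arrays 2 and 4, so it bears on the sign of arrays 1 and 3 alone. On the opposite reading every sign below would turn. The log base is not stated and was read as 2. Across the 3840 genes measured on all arrays, pairs of arrays with opposite dye correlated with Pearson r between 0.20 and 0.65, and pairs with the same dye with r of 0.54 and 0.75 (across genes, which are not independent replicates). The signs were therefore left as deposited on all arrays. Ratios never turned for the dye, with a dye bias larger than the strain difference, cannot be told apart from this by the correlations. With the sign turned on arrays 1 and 3, where BRE1 was negative as deposited, STE2 had a mean of 0.53 and AFB1 one of 0.17. Turning arrays 2 and 4 instead, where BRE1 had no value, gives these 2 means the opposite sign. The arrays gave 4354 to 4759 values each, with medians between -0.05 and 0.07 and SDs over genes between 0.49 and 0.67, the largest on array 1.

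STE2 and AFB1 fell in bre1, 1 gene of each class. The a-specific alpha-factor receptor gene STE2 was 2.46-fold lower, and the alpha-specific gene AFB1, which encodes a protein that sequesters a-factor, was 2.38-fold lower. AGA1, measured on 3 arrays, lay lowest of the 10 by its mean over the arrays that measured it. By the same measure STE3, the alpha-specific receptor gene, was the only one with a mean above 0. Both lacked a value on array 4. Over arrays 1 to 3 alone, STE2 averaged -1.50, below AGA1 (-1.45), and MFA2 averaged 0.07, above 0 with STE3. The places of AGA1 and STE3 among the 10 hold for the signs as deposited. With the sign turned on arrays 1 and 3, AGA1 had the highest mean of the 10 (0.65) and STE3 a mean of -0.39. Turning arrays 2 and 4 instead gives each of those means the opposite sign. AGA1 is then again the lowest, and MFA1, MFA2 and AGA2 lie above 0 with STE3. These places after a turn also set means over 3 arrays beside means over 4. Of 40 possible values 36 were present: 6 genes (STE2, MFA1, MFA2, STE6, SAG1 and AFB1) had a value on all 4 arrays and were tested, and 4 (BAR1, AGA2, AGA1 and STE3) had 3 values each. Of all reading frames, 69.8% had 4 values and 12.5% had 3.

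**Figure D1:**
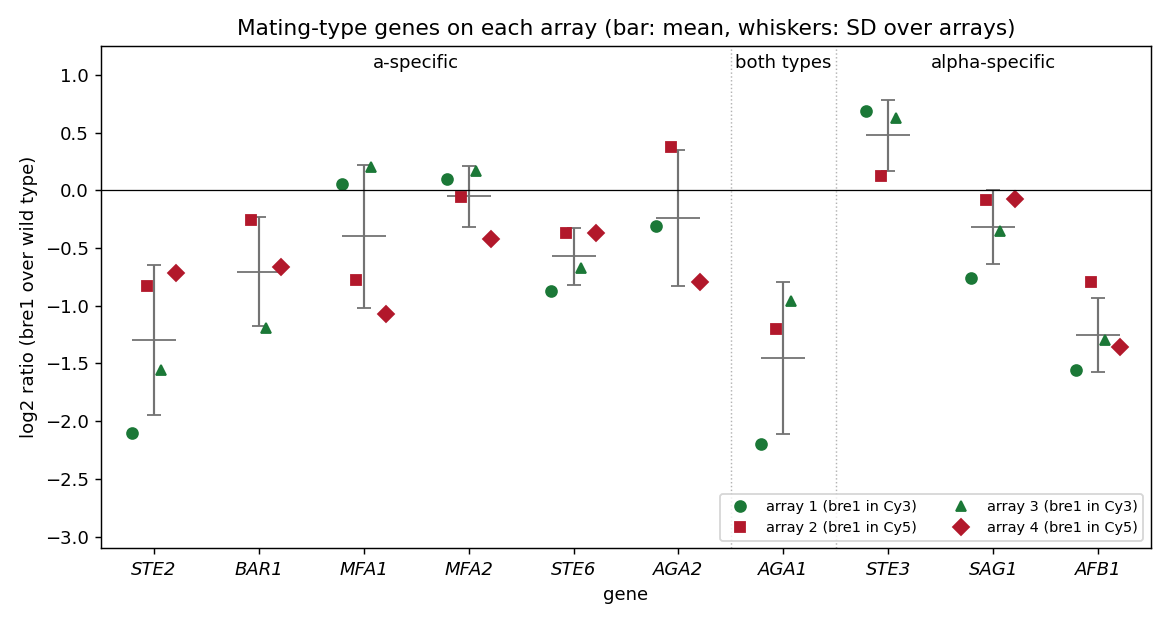
Log2 ratio (bre1 over wild type, vertical axis) of each of the 10 genes on each array, with the arrays that carried bre1 RNA in Cy5 in red and those that carried it in Cy3 in green; the grey bar is the mean and the whiskers the SD over arrays. STE2, BAR1, STE6, AGA1, SAG1 and AFB1 lie below 0 on every array that measured them, and STE3 lies above 0 on its 3 arrays.

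When limma was used to test each gene's mean against a log2 ratio of 0, with Benjamini-Hochberg adjustment over 3840 genes and a threshold of 0.05, 2 of the 6 tested genes passed, both lower in bre1. Over all tested genes 10.7% passed, 4.79% lower and 5.89% higher. A ratio below 0 on all 4 arrays was found for 4 of the 6 (STE2, STE6, SAG1 and AFB1), against 16.6% of tested genes. The median of the mean log2 ratios was -0.49 over the 10 genes and 0.02 over all tested genes, and 9 of the 10 means were below 0, against 47.4% of the means of tested genes. With the sign turned on arrays 1 and 3, 4 of the 10 means were below 0, against 38.4%. Turning arrays 2 and 4 instead puts those same 4, and that 38.4% of tested genes, above 0.

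The receptors came apart. STE2 encodes the G-protein-coupled receptor by which a cells sense alpha-factor, and its log2 ratio was -2.10, -0.83, -1.55 and -0.72 on arrays 1 to 4. Every array placed it low: 0.207%, 6.05%, 0.315% and 3.95% of the genes measured on arrays 1 to 4 had a lower ratio. Its mean was -1.30 ± 0.65 (SD, n = 4), with limma's adjusted p = 0.0198. The call did not hold without array 2 (adjusted p = 0.0596) or without array 3 (adjusted p = 0.0522), and held without array 1 (adjusted p = 0.0466) and without array 4 (adjusted p = 0.00524).

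STE3 encodes the receptor by which alpha cells sense a-factor. It had log2 ratios of 0.68, 0.12 and 0.62 on arrays 1 to 3 and no value on array 4. It stood high on arrays 1 and 3, where 87.3% and 92.5% of measured genes had a lower ratio, and near the middle on array 2, with 54.1% lower. The mean was 0.48 ± 0.31 (SD, n = 3), and in a fit over the 4527 genes with at least 3 values limma's adjusted p was 0.163. On the 3 arrays that measured both receptors, STE2 minus STE3 was -2.79, -0.95 and -2.17, a mean of -1.97 ± 0.93 (SD, n = 3). STE2 was thus the lower of the pair on each of these arrays, by a log2 difference that was smallest on array 2. Among these arrays only array 2 had bre1 RNA in Cy5. The part of the dye in the size of this difference was not tested. With 3 arrays an exact sign-flip test cannot give a two-sided p under 0.25, so none was run.

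The pheromone barrier genes lay on the same side of 0. BAR1 encodes the secreted protease of a cells that degrades alpha-factor, and it is itself induced by pheromone. It had no value on array 1, and its log2 ratios on arrays 2 to 4 were -0.25, -1.20 and -0.66. The 3 values do not straddle 0 but differ widely, and the mean of -0.70 ± 0.47 (SD, n = 3) did not pass in the fit over genes with at least 3 values (limma adjusted p = 0.087).

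AFB1 encodes the a-factor barrier protein that alpha cells secrete. It had log2 ratios of -1.56, -0.80, -1.29 and -1.36 on arrays 1 to 4. Both dye orientations gave ratios well below 0. At most 6.80% of the genes on any array (array 2) lay lower than AFB1, and 0.412% did on array 4. The mean was -1.25 ± 0.32 (SD, n = 4; limma adjusted p = 0.00764), and leaving out array 2 moved the adjusted p to 0.0506, just past the threshold. BAR1 minus AFB1 was 0.54, 0.10 and 0.70 on arrays 2 to 4, a mean of 0.45 ± 0.31 (SD, n = 3), so AFB1 was the lower of the pair on each.

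Neither gene of a-factor itself passed the test. MFA1 and MFA2 encode precursors of a-factor, which are farnesylated, cut and then exported. MFA1 had log2 ratios of 0.05, -0.78, 0.20 and -1.07 on arrays 1 to 4, and MFA2 had 0.10, -0.06, 0.17 and -0.42. Both genes were thus below 0 on the arrays with bre1 RNA in Cy5 and slightly above 0 on those with bre1 RNA in Cy3, a pattern found for 2 of the 6 tested genes and 4.27% of all tested genes. The means were -0.40 ± 0.62 for MFA1 and -0.05 ± 0.26 for MFA2 (SD, n = 4 each), with limma's adjusted p of 0.271 and 0.850. Their sequences are similar, so that a probe for one may read some of the other. MFA1 minus MFA2 was -0.72 and -0.65 on arrays 2 and 4 and -0.04 and 0.03 on arrays 1 and 3, so MFA1 had the lower ratio where bre1 RNA carried Cy5 and the ratios were nearly equal where it carried Cy3.

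MFA1 and MFA2 are also among the shortest genes of the table, with 111 and 117 bp, and AGA2 has 264 bp (annotated lengths). The other tested genes of at most 500 bp, 292 in all, had higher ratios than the 3523 longer ones: their medians on arrays 1 to 4 were 0.58, 0.34, 0.30 and 0.17, against -0.03, 0.07, -0.10 and 0.09 for longer genes. Set against the short genes, MFA1 was lower than their median on all 4 arrays, by differences in log2 ratio of -0.53, -1.12, -0.10 and -1.24, and MFA2 by -0.48, -0.40, -0.13 and -0.59. Of the short genes, 10.3% had a lower mean ratio than MFA1 and 22.9% a lower one than MFA2. AGA2 differed from the short-gene median by -0.89, 0.04 and -0.97 on arrays 1, 2 and 4, so it was not lower throughout. By its mean over these arrays, 16.4% of the short genes lay lower than AGA2. In a fit with the median over genes of like length (5 bins) removed from each array, an alternative chosen after the data were seen, MFA1 had a mean log2 ratio of -0.65 (limma adjusted p = 0.099) and MFA2 one of -0.30 (limma adjusted p = 0.230). The part of gene length in these values was not tested further.

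STE6 encodes the ABC transporter that exports a-factor from a cells. Its log2 ratios were -0.87, -0.37, -0.67 and -0.37 on arrays 1 to 4, below 0 throughout and with the smallest SD of the 10 genes. The mean of -0.57 ± 0.25 (SD, n = 4) corresponds to 1.49-fold lower in bre1, and its adjusted p of 0.0515 in limma lay just above the threshold. Several alternatives put it under the threshold, among them centring each array on its median (adjusted p = 0.0356) and a dye term (adjusted p = 0.0181). Over all genes these 2 fits passed 467 and 897, against 410 in the main fit. Leaving out array 1, 2 or 3 gave limma's adjusted p of 0.242, 0.137 and 0.128 for STE6, and leaving out array 4 gave 0.0411.

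The agglutinin genes were unlike one another. AGA1 encodes the wall-anchored subunit of a-agglutinin, to which the binding subunit Aga2 is attached by disulfide bonds, and it is strongly induced by pheromone. It had log2 ratios of -2.20, -1.20 and -0.96 on arrays 1 to 3 and no value on array 4. Only 0.161% of the genes on array 1 lay lower, and 2.02% and 3.45% did on arrays 2 and 3. The mean was -1.45 ± 0.66 (SD, n = 3), which is 2.74-fold lower in bre1. In the fit over genes with at least 3 values AGA1 passed (limma adjusted p = 0.0224), and 3 of the 10 genes passed there (STE2, AGA1 and AFB1), all lower in bre1. Of the 4527 genes in that fit, 9.01% passed in either direction, and 4.11% of the 4527 passed as lower.

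AGA2 had log2 ratios of -0.31, 0.38 and -0.79 on arrays 1, 2 and 4, and no value on array 3. These values lie on both sides of 0 (mean 0.03 without array 4), and the mean over the 3 arrays was -0.24 ± 0.59 (SD, n = 3; limma adjusted p = 0.566 in the fit over genes with at least 3 values). On arrays 1 and 2, the 2 that measured both subunits, AGA1 minus AGA2 was -1.89 and -1.58, so the anchor gene had the lower ratio on each.

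SAG1 encodes alpha-agglutinin, the partner of Aga2 on alpha cells. Its log2 ratios were -0.76, -0.09, -0.35 and -0.08 on arrays 1 to 4, all below 0 but close to it on the arrays with bre1 RNA in Cy5. The mean was -0.32 ± 0.32 (SD, n = 4; limma adjusted p = 0.233). AGA2 minus SAG1 was 0.45, 0.46 and -0.71 on arrays 1, 2 and 4, with no constant order (mean 0.07 ± 0.68, SD, n = 3).

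**Figure D2:**
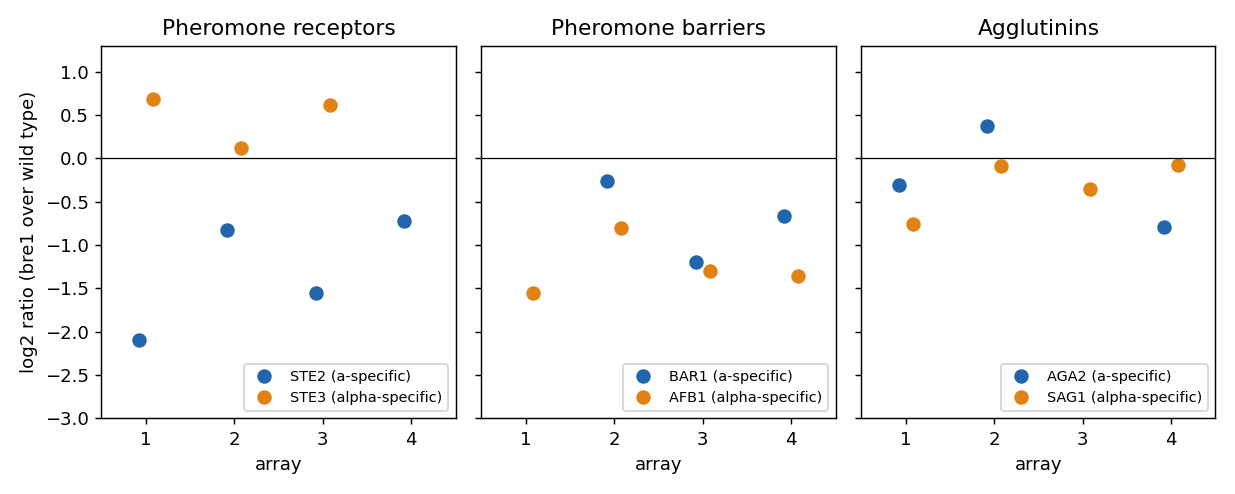
Log2 ratio (bre1 over wild type, vertical axis) on arrays 1 to 4 for the a-specific gene (blue) and its alpha-specific counterpart (orange) among receptors, barriers and agglutinins; a missing point is a missing value. STE2 lies below STE3 on the 3 arrays with both, AFB1 lies below BAR1 on the 3 arrays with both, and AGA2 and SAG1 change order.

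The comparison of the classes asked whether a-specific and alpha-specific genes moved apart. Mean log2 ratios over the measured a-specific genes were -0.63, -0.32, -0.61 and -0.67 on arrays 1 to 4, and those over the alpha-specific genes were -0.54, -0.25, -0.34 and -0.72. The difference between the class means, a-specific minus alpha-specific, was -0.08, -0.07, -0.27 and 0.05. It was close to 0 on each array, below 0 on 3 of them and above 0 on array 4. Its mean was -0.09 ± 0.13 (SD, n = 4 arrays), less than its own spread. The genes within a class differed far more: the means ran from -1.30 (STE2) to -0.05 (MFA2) among the a-specific genes and from -1.25 (AFB1) to 0.48 (STE3) among the alpha-specific ones. The classes were not measured alike on all arrays, since BAR1 was missing on array 1, AGA2 on array 3 and STE3 on array 4. With the genes measured on all 4 arrays alone, which leaves out STE3, BAR1 and AGA2, the difference was 0.20, and with AGA1 counted among the a-specific genes it was -0.20. No test was made of these class values, because the genes were chosen with results of these data known.

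**Figure D3:**
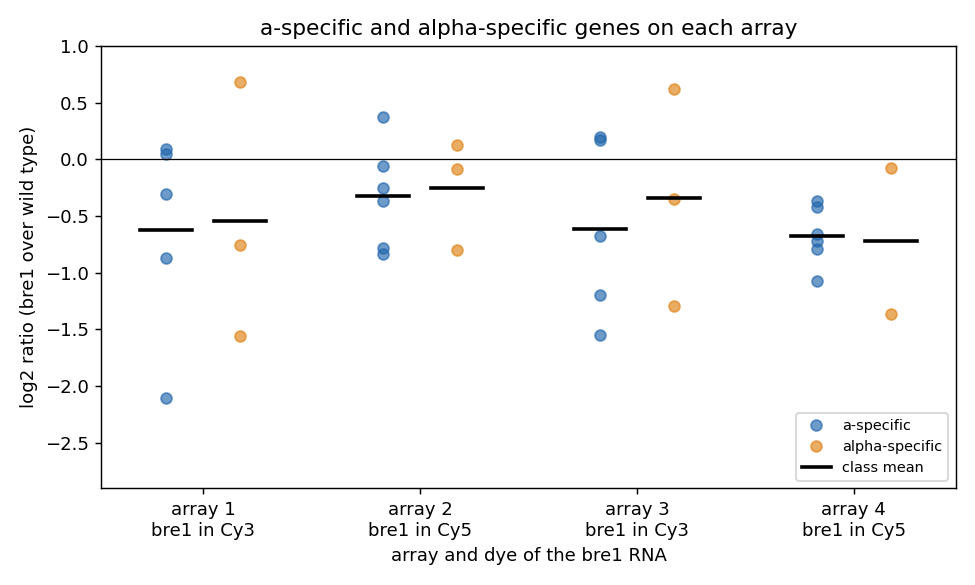
Log2 ratio (bre1 over wild type, vertical axis) of the a-specific genes (blue) and the alpha-specific genes (orange) on each array, with a black line at the mean of each class. The class means lie within 0.27 of each other on every array, while single genes of a class spread over up to 2.24.

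The ratios also moved with the dye. For 7 of the 10 genes the mean was higher on the arrays with bre1 RNA in Cy5 than on those with bre1 RNA in Cy3. The share of all genes that did so was not counted. The median over tested genes was also higher with bre1 in Cy5: 0.087 and 0.096 on arrays 2 and 4, against -0.005 and -0.079 on arrays 1 and 3. STE2 averaged -0.77 with bre1 in Cy5 and -1.83 with bre1 in Cy3, and AFB1 averaged -1.08 with bre1 in Cy5 and -1.42 with bre1 in Cy3. The exceptions were MFA1, MFA2 and STE3, and MFA1 averaged -0.92 with bre1 in Cy5 and 0.13 with bre1 in Cy3. In a limma fit with dye orientation as a term, 2 of the 6 tested genes had a dye difference with an unadjusted p under 0.05, namely STE2 (difference 1.05, Cy5 minus Cy3) and MFA1 (difference -1.05), against 19.1% of all genes. Neither passed after adjustment (adjusted p of 0.135 and 0.119), as 0.104% of all genes did. In that fit 3 of the 6 genes (STE2, STE6 and AFB1) had a mean that differed from 0, all lower. Of all tested genes, 23.4% passed there in either direction, and 10.9% of all tested genes passed as lower. With the signs as deposited, the direction of STE2 and AFB1 was thus the same within each dye orientation. With the sign turned on arrays 1 and 3, or on arrays 2 and 4, their direction would differ between the orientations. The dye's part in the ratios of MFA1 and MFA2 was not tested further.

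**Figure D4:**
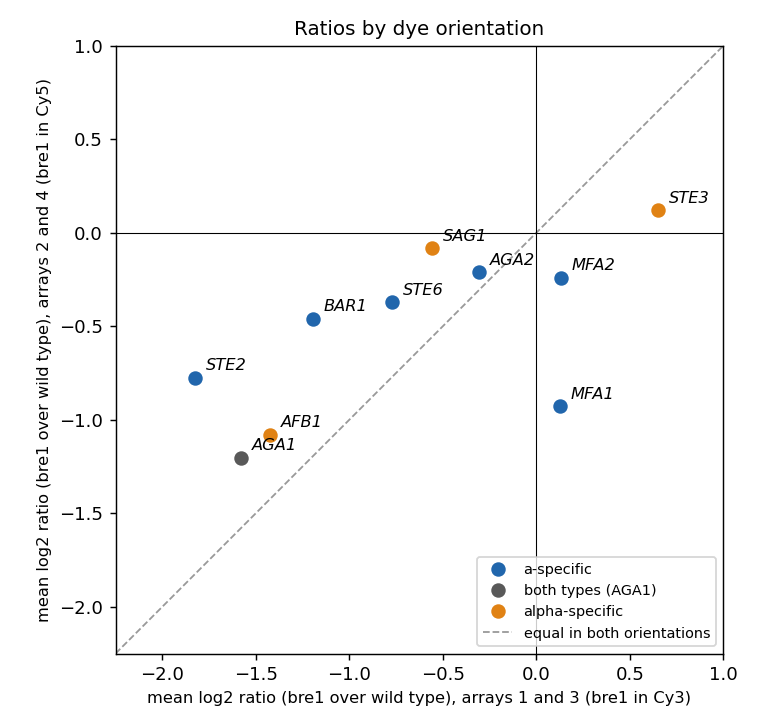
Mean log2 ratio (bre1 over wild type) of each gene on arrays 2 and 4, with bre1 RNA in Cy5 (vertical axis), against that on arrays 1 and 3, with bre1 RNA in Cy3 (horizontal axis); the dashed line marks equal values. STE2, BAR1, STE6, AGA1, AGA2, SAG1 and AFB1 lie above the line, and MFA1, MFA2 and STE3 lie below it; BAR1, AGA2, AGA1 and STE3 rest on a single array in one orientation.

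Genes that work with these 10 were listed by function. Of 7 genes of a-factor processing, 4 were tested and none passed in limma; 2 reached an unadjusted p under 0.05, as 30.2% of all tested genes did, and 1 passed in the fit with a dye term, as 23.4% did. That 1 was STE23, a protease gene (mean log2 ratio -0.48 ± 0.19, SD, n = 4), with limma's adjusted p of 0.071 and, with the dye term, 0.039. STE14, a carboxyl methyltransferase gene, averaged -0.61 ± 0.56, STE24, another protease gene, -0.47 ± 0.56, and AXL1, the protease gene of the final cut, -0.33 ± 0.13 (SD, n = 4 each). All 4 means were below 0, as were 47.4% of those of all tested genes, and their median was -0.48, against 0.02 over all tested genes. RAM2, a subunit of the farnesyltransferase, averaged -0.31 ± 0.39 (SD, n = 3). Of the alpha-factor processing genes, KEX2 averaged -0.29 ± 0.23 and STE13 -0.02 ± 0.30 (SD, n = 4 each). Neither passed in limma, in the fit with a dye term or at an unadjusted p under 0.05.

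The regulators of mating type did not pass either. Of 10 genes chosen, 9 were matched to the value table (HMRA1 was not analysed here), 5 were tested and none passed in limma or in the fit with a dye term, with 1 at an unadjusted p under 0.05, against 30.2% of all tested genes. That 1 was STE12, the factor that activates pheromone-induced genes, with a mean log2 ratio of -0.40 ± 0.16 and 1 sign on all 4 arrays (SD, n = 4; limma adjusted p = 0.108). MCM1 averaged 0.16 ± 0.30 and CYC8 0.08 ± 0.45 (SD, n = 4 each). MATALPHA2 and HMLALPHA2, the expressed and the silent copy of the alpha2 repressor gene in the reference strain, averaged 0.01 ± 0.40 and 0.05 ± 0.67 (SD, n = 4 each). These copies share their sequence, as HMRA2 does in part, and their signals cannot be told apart. HMRA2 had log2 ratios of 0.86, 0.26 and 0.76 on arrays 1 to 3 (mean 0.63 ± 0.32, SD, n = 3; limma adjusted p = 0.0891 in the fit over genes with at least 3 values). ASG7, another a-specific gene, averaged -0.10 ± 0.42 (SD, n = 3).

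Of 18 haploid-specific and pheromone-induced genes, 11 were tested and none passed in limma, with 2 at an unadjusted p under 0.05 and 2 passing with a dye term, no larger shares than the 30.2% and 23.4% of all tested genes. Both counts are of PRM1 and KAR4, which act in cell and nuclear fusion, with means of -0.52 ± 0.17 and -0.51 ± 0.38 (SD, n = 4 each) and limma's adjusted p of 0.0556 and 0.0953. The median of the 11 means was -0.28, against 0.02 over all tested genes, and 10 of them were below 0, against 47.4%. AXL1 is counted here and also among the genes of a-factor processing. With at least 3 values required, 15 genes were tested and 1 passed, as lower. Of all 4527 genes in that fit, 9.01% passed in either direction, and 4.11% of the 4527 passed as lower. The 1 gene was SST2, which encodes the protein that turns off the pheromone G protein. It had log2 ratios of -1.87, -1.34 and -1.09 on arrays 1, 3 and 4 (mean -1.43 ± 0.40, SD, n = 3; limma adjusted p = 0.0138).

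Other descriptions place STE2 and AFB1 among the other genes. By Euclidean distance over the 4 log2 ratios, the genes nearest to STE2 were HXT2 (distance 0.39), a glucose transporter gene, ARN1 (0.45), a siderophore transporter gene, and PMA1 (0.45), the plasma membrane proton pump gene. Those nearest to AFB1 were SMK1 (0.47), a kinase gene of spore formation, YFL065C (0.52), and YRF1-2 (0.59), a helicase gene of the repeats at chromosome ends. STE2 and AFB1 were 0.88 apart, so neither was among the nearest to the other. Of the 40 genes that flank the 10, 2 on each side, 18 were tested and 2 passed in limma, a share near the 10.7% of all tested genes, with a median mean log2 ratio of 0.04. These were BST1, next to STE2, at -0.55 (adjusted p = 0.0496), and RPL24A, next to AGA2, at 1.10 (adjusted p = 0.00826), both named because the count is small.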

How the data were processed

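The authors deposited 1 log2-scale ratio per reading frame and array (base 2 was read from the range of the values; normalization, background correction, spot filter, centring and direction: not given in the sources used here). Scanner intensities were not analysed, so dim spots could not be told from bright ones. Precision is limited by the number of arrays. If the authors' log2 ratios were centred within arrays, a change of all transcripts would not be seen. Names came from a RefSeq gene table of assembly R64, which matched 5470 of 5500 frames; the values name no build, so no coordinates are printed.

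Genes with a value on all 4 arrays (3840) were tested with limma 3.58.1 in R 4.3.3: an intercept alone on the 4 log2 ratios, eBayes, a two-sided test against 0 and Benjamini-Hochberg adjustment, threshold 0.05. The fit was tested on simulated data with independent normal errors and no dye effect, so that check does not cover a dependence between arrays. Errors are SDs over arrays. Alternatives were at least 3 or 2 values per gene, a dye term, arrays centred, scaled or weighted, a robust prior, each array left out, the sign turned on arrays with bre1 in Cy3 and, chosen after the data were seen, gene length removed. All 10 genes are named, with the genes of the lists that have at least 3 values (of the haploid-specific and pheromone-induced list, those with the smallest p), BRE1, and the 3 genes nearest to STE2 and to AFB1. Genes and lists were chosen with earlier results of these data known. Promoter and protein sequences were not used here.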

Additional observations from a re-analysis of the deposited data

Results flagged for a closer look

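Of the 27 tested genes among the 10 and the functional lists, 6 had 1 sign on both arrays with bre1 RNA in Cy5 and the other sign on both arrays with bre1 RNA in Cy3, as 14.9% of tested genes did. The mean log2 ratio with bre1 in Cy5 minus that with bre1 in Cy3 was -1.05 for MFA1, -0.37 for MFA2, -1.12 for HMLALPHA2 and -0.65 for MATALPHA2. It was 0.49 for STE13 and 0.81 for STE4, the gene of the beta subunit of the pheromone G protein. In the limma fit with a dye term the adjusted p of this difference lay between 0.114 (HMLALPHA2) and 0.467 (MFA2), and none passed, although MFA1, HMLALPHA2, MATALPHA2 and STE4 had an unadjusted p under 0.05. The part of the dye in these values was not tested further.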

How the results depend on the processing

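The main count of 2 of 6 tested genes past the threshold ranged from 0 to 3 when 1 array was left out: 2 without array 1, 0 without array 2, 1 without array 3 and 3 without array 4. Over all genes, 410 of 3840 passed, against 54, 0, 187 and 677 without arrays 1 to 4. The limma count of 0 without array 2 stands beside 815 genes at an unadjusted p under 0.05, 3 of them among the 6. All genes past the threshold numbered 897 with a dye term and 685 with array weights. STE2 and AFB1 passed with at least 3 or 2 values per gene, a dye term, arrays centred, scaled or weighted, a robust prior and gene length removed. With the sign turned on the arrays with bre1 in Cy3, no gene passed in limma (208 of 3840 and 0 of the 6 had an unadjusted p under 0.05). Ratios deposited as Cy5 over Cy3 would need this turn, which makes BRE1 higher in bre1 on arrays 1 and 3. The means were then 0.53 for STE2, 0.20 for STE6, 0.24 for SAG1, 0.17 for AFB1, 0.65 for AGA1 and 0.09 for BAR1. Those of the others were -0.53 for MFA1, -0.39 for STE3, -0.19 for MFA2 and -0.04 for AGA2. Ratios deposited as Cy3 over Cy5 would need arrays 2 and 4 turned instead, which gives each of these means the opposite sign. The mean of MFA2 ran from -0.128 to 0.0691 with 1 array left out, being above 0 without array 4, as was that of AGA2 (0.03). Leaving out 1 array also moved, by over 1.5 times, the means of MFA1 (to -0.18 without array 4 and -0.60 without array 3), SAG1 (to -0.17 without array 1), BAR1 (to -0.46 without array 3) and AGA2 (to -0.55 without array 2). The difference between class means was -0.14 to -0.03 with 1 array left out, 0.20 with the genes on all 4 arrays, -0.02 with medians and -0.20 with AGA1 among the a-specific genes. It was 0.0837 with the sign turned on arrays 1 and 3, and of the opposite sign with arrays 2 and 4 turned instead. The causes were not tested. Each log2 ratio already pairs bre1 with wild-type RNA on 1 array, and the arrays form 1 group, so no further pairing was made. Signal over background was not analysed.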
